A study of Mus musculus with 6 samples.

Results

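The genes described here are 10 adaptors and RAS activators that work downstream of the B-cell receptor: Rasgrp1, Rasgrp2, Rasgrp3, Lat2, Bank1, Pik3ap1, Dapp1, Sh3bp2, Shc1 and Cblb. They were chosen by name, and each was read by the only array probe set annotated to it alone, so that all 10 were found among the 19938 genes measured. The cells were mouse pre-B cells of the Balb/c strain (age given as 4 weeks), transformed by BCR-ABL1, the tyrosine kinase made by the Philadelphia translocation in acute lymphoblastic leukemia (ALL), and all of them are labelled as Blnk knockout. Of the 6 samples, 3 were transduced with Blnk (also named Slp65) and 3 with pMIG, a retroviral vector carrying GFP, and RNA came from GFP-positive cells sorted 5 days later. Both groups therefore share the BCR-ABL1 transformation, the knockout label and the sort for GFP, and they differ in what was transduced. Nothing in the labels tells whether a group's samples came from different cultures or animals, so p-values reflect the spread of these 6 samples alone, and that spread may be technical.

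BLNK is an adaptor that, once phosphorylated by SYK, brings BTK and phospholipase C gamma together below the B-cell or pre-B-cell receptor. The lipase makes diacylglycerol and releases calcium, signals that recruit or activate the RASGRP proteins. These are exchange factors that load RAS or its relatives with GTP, and those that act on RAS so start the ERK cascade. The adaptors form the parallel branches: some join the receptor to PI3 kinase or read its lipid products, some join it to GRB2 and SOS, and CBL-type ligases tag the signalling proteins with ubiquitin.

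Blnk itself had intensities of 2714, 3342 and 3022 in the Blnk samples, against 972, 926 and 1013 in the pMIG samples (3.11-fold, 95% interval 2.68 to 3.60; limma adjusted p = 0.000101). The exons read by its probe set, and those removed by the knockout, are not stated in the labels, and the signal in pMIG samples is therefore no check of the knockout. The median over all probe sets lay between 67.0 and 70.0 on every array, and arrays correlated across genes at 0.9963 to 0.9966 within the Blnk group and at 0.9951 to 0.9969 within the pMIG group. B-lineage markers were bright, with 6 measured genes summing to 25392 to 26721 in the Blnk samples and 25985 to 26782 in the pMIG samples. Among them, 2 passed the test in opposite directions. Vpreb1, part of the surrogate light chain of pre-B cells, fell (log2 -0.68; limma adjusted p = 0.00976), though not without pMIG sample 2 (0.0502) or pMIG sample 3 (0.0688). The receptor chain Cd79a rose (log2 0.31; limma adjusted p = 0.0468), though not when single arrays were left out (0.0678 without Blnk sample 1 to 0.151 without pMIG sample 3). The part of these changes in the results below was not tested. Several of the 10 genes are also used by T cells, myeloid cells, platelets or mast cells. None of the 7 T-cell, 10 myeloid, 4 megakaryocyte and platelet, or 5 mast-cell markers measured passed the test. Over all genes 3.61% passed, so none passing in lists this short is no test of cell content. The brightest T-cell marker was Cd8a, with 184, 255 and 134 in the Blnk samples and 185, 149 and 176 in the pMIG samples. Myeloid markers did not exceed an intensity of 48, and their sums were 306 to 325 in the Blnk samples and 292 to 320 in the pMIG samples. The T-cell sums were 409 to 518 in the Blnk samples and 392 to 482 in the pMIG samples, the megakaryocyte and platelet sums 145 to 172 in the Blnk samples and 145 to 179 in the pMIG samples, and the mast-cell sums 111 to 112 in the Blnk samples and 107 to 130 in the pMIG samples.

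Of the 10 genes, 6 rose with Blnk and 0 fell at a Benjamini-Hochberg adjusted p of 0.05 (limma, over all genes), where 3.61% of all genes passed in either direction, 2.51% upward and 1.10% downward. The genes that rose were Rasgrp3, Lat2, Bank1, Rasgrp1, Sh3bp2 and Dapp1, and those that did not pass were Cblb, Shc1, Pik3ap1 and Rasgrp2. The median log2 fold change over the 10 genes was 0.40, beside a median of 0.00 over all genes. In 9 of the 10 genes every Blnk sample lay above every pMIG sample, which 11.8% of all genes showed. Taking each sample against the mean of the pMIG samples, the median over the 10 genes was 0.34, 0.45 and 0.46 on the log2 scale in the Blnk samples and -0.04, 0.01 and 0.04 in the pMIG samples. The 10 genes were proposed with earlier results of these data in view, so these counts describe them and are not independent support for a rise of the group. In bulk samples, more cells that express a gene and more RNA per cell cannot be told apart.

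**Figure D1:**
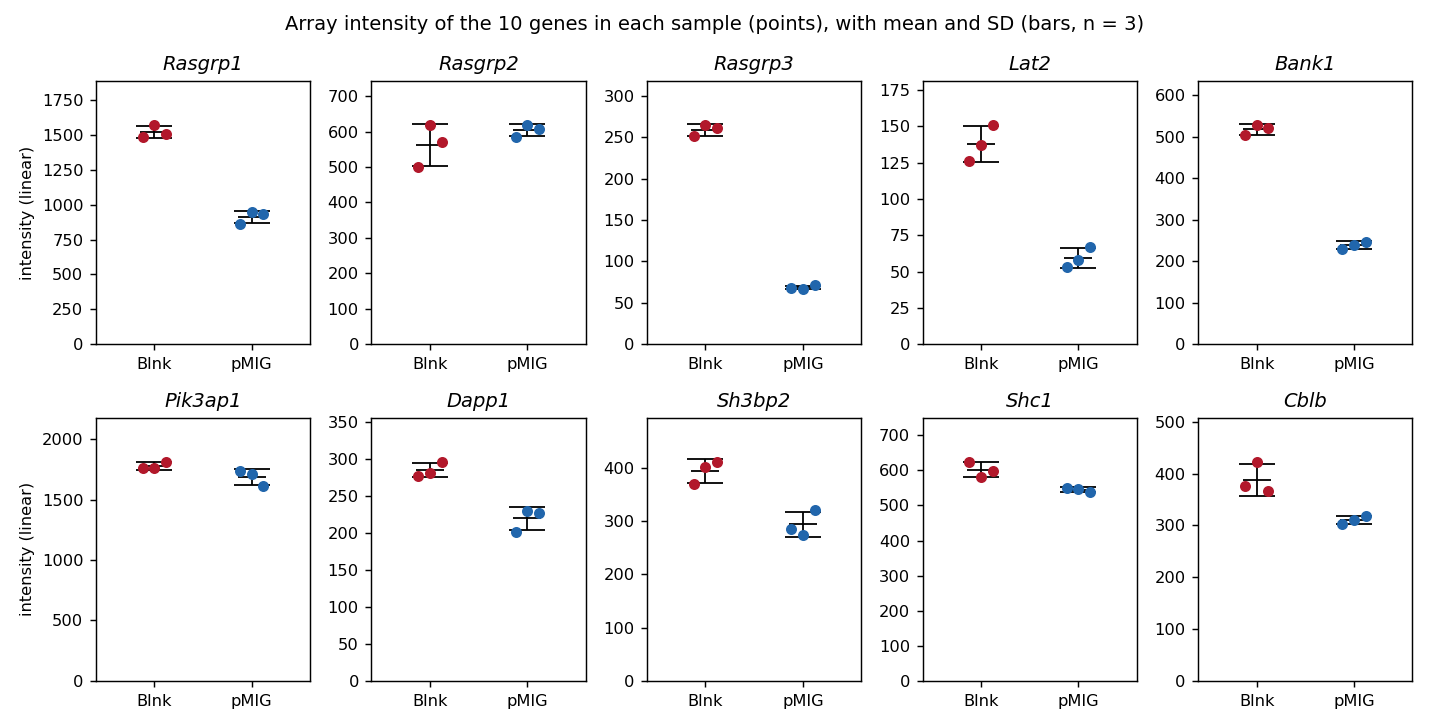
Linear array intensity (vertical axes, starting at 0, a separate scale per gene) of the 10 genes in the Blnk samples (red) and the pMIG samples (blue); points are samples and bars are the mean and SD of 3 samples. The groups are separate in every panel except Rasgrp2, and the widest separation as a ratio is in Rasgrp3, at 251 to 265 with Blnk and 67 to 71 with pMIG.

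Rasgrp3, the exchange factor of this family best known from B cells, moved most among the 10. Its intensity was 251, 265 and 261 in the Blnk samples, against 68, 67 and 71 in the pMIG samples. The lowest Blnk sample was 3.54 times the highest pMIG sample, and the pMIG values were close to the median of all probe sets. The rise was 3.77-fold (95% interval 3.39 to 4.19; log2 1.92, SE 0.0658; limma adjusted p = 2.26e-05), and only 2 of the 19938 genes had a smaller p.

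Rasgrp1, an exchange factor first studied in T cells and also present in B cells, rose less in relative terms. It had intensities of 1485, 1572 and 1506 in the Blnk samples and 860, 946 and 930 in the pMIG samples. No sample of one group came near the other, and the rise was 1.67-fold (95% interval 1.49 to 1.87; limma adjusted p = 0.00125). The 95% intervals of the Rasgrp1 and Rasgrp3 fold changes do not touch.

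Rasgrp2, which acts mainly on the RAS relative RAP1 and is best known from platelets, had no such change. Its intensity was 501, 619 and 570 in the Blnk samples and 586, 619 and 608 in the pMIG samples. The groups overlapped, with the highest sample of each at the same value, and the fold was 0.929 (95% interval 0.804 to 1.07; limma adjusted p = 0.662). That interval leaves room for a fall to 0.804-fold and lies below the intervals of Rasgrp1 and Rasgrp3. The remaining member of the family, Rasgrp4, which is known from mast cells, lay near the array medians. It had 90, 88 and 84 in the Blnk samples and 70, 59 and 64 in the pMIG samples. It rose 1.36-fold (limma adjusted p = 0.0290), but with 1 array left out it passed only without pMIG sample 1 (0.0355) and otherwise had an adjusted p from 0.0892 (without Blnk sample 3) to 0.132 (without pMIG sample 3).

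Promoter windows of 300 bases, reaching 250 bases before and 50 bases after a transcript start, were held by RefSeq (GRCm38.p6) for 9 of the 10 genes, with 13 windows in all. Those of the 3 genes with the largest rises among these 9 are shown 5′ to 3′ on the strand of the gene, both windows in the case of Rasgrp3, since the array does not tell which start is used. Capitals mark matches, on either strand, to 5 short motifs of factors active in B cells: TGANTCA (AP-1), GAGGAA (ETS factors of the PU.1 type), CAGGTG (E2A), GTAAACA (FOXO) and TGGAAA (NFAT).
Rasgrp3, chr17:75435655-75435954, plus strand: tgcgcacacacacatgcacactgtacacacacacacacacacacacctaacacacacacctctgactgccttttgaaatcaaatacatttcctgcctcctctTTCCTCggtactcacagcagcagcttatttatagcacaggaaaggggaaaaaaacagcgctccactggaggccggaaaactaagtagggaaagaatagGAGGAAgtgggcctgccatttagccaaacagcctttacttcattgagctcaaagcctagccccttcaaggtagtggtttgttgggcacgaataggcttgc
Rasgrp3, chr17:75465288-75465587, plus strand: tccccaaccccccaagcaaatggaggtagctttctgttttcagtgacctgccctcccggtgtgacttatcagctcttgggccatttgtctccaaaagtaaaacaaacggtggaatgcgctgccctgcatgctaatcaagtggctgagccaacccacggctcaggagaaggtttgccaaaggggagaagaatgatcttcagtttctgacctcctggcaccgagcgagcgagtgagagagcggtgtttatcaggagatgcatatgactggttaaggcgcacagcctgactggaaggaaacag
Bank1, chr3:136326017-136326316, minus strand: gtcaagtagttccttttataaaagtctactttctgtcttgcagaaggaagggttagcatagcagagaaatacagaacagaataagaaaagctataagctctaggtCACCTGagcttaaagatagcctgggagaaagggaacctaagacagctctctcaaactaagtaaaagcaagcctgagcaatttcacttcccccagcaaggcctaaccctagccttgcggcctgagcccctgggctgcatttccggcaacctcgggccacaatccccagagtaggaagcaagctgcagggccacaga
Rasgrp1, chr2:117342828-117343127, minus strand: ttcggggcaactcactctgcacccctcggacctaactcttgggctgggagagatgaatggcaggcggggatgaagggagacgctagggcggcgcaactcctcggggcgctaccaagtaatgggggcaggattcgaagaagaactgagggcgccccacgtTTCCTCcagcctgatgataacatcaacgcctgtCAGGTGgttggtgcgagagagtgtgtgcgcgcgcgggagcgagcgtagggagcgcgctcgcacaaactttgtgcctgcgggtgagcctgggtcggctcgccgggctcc

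The first Rasgrp3 window held 2 matches to the ETS motif, starting 148 and 50 bases before the transcript start, and the second window held no match to any of the 5. The Rasgrp1 window held 1 ETS match, 91 bases before the start, and 1 E2A match, 58 bases before it, while the Bank1 window held 1 E2A match, 145 bases before the start. No match overlapped another in these windows. The ETS motif occurred in 28.3% and the E2A motif in 20.2% of all 32851 windows, so single matches of this kind are common. NFAT matches occurred in 21.4% of all windows, AP-1 matches in 7.81% and FOXO matches in 3.65%. Among the 13 windows, AP-1 matched in 1 of the 2 Shc1 windows, NFAT in both Shc1 windows and in 1 of the 2 Sh3bp2 windows, and FOXO in 0. ETS matches also stood in both Sh3bp2 windows and in those of Cblb and Pik3ap1, and the Pik3ap1 window also had an E2A match, so that the motif was present beside genes that passed the test and beside genes that did not. Base composition differed widely: G and C made up 48.3% and 52.7% of the Rasgrp3 windows, 48.7% of the Bank1 window and 63.7% of the Rasgrp1 window, against 80.0% and 66.0% in the windows of Rasgrp2, with a median of 52.7% over all windows. A match is a description of letters and does not show that a factor binds there.

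The transmembrane adaptor Lat2 (also called LAB or NTAL), which is phosphorylated after receptor engagement and binds GRB2, rose 2.33-fold. Its intensity was 126, 137 and 151 in the Blnk samples, against 53, 58 and 67 in the pMIG samples. The groups were far apart, although the pMIG values lay near or below the array medians. The relative spread of Lat2 was larger than that of the other genes that rose (95% interval 1.96 to 2.77; log2 1.22, SE 0.108; limma adjusted p = 0.000903). Its relative Lat, the adaptor of the same type that T cells use, went the other way. Lat had 398, 439 and 451 in the Blnk samples, against 967, 984 and 976 in the pMIG samples (log2 -1.19; limma adjusted p = 0.000142). Markers in the T-cell list, given above, did not pass the test. Whether cell content has a part in the fall of Lat was not tested.

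Bank1, a B-cell scaffold with ankyrin repeats that is phosphorylated after receptor engagement, had 503, 528 and 520 in the Blnk samples and 229, 240 and 247 in the pMIG samples. Every Blnk value was at least 2.04 times every pMIG value. The rise was 2.17-fold (95% interval 1.95 to 2.41; log2 1.12, SE 0.0669; limma adjusted p = 0.000127).

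**Figure D2:**
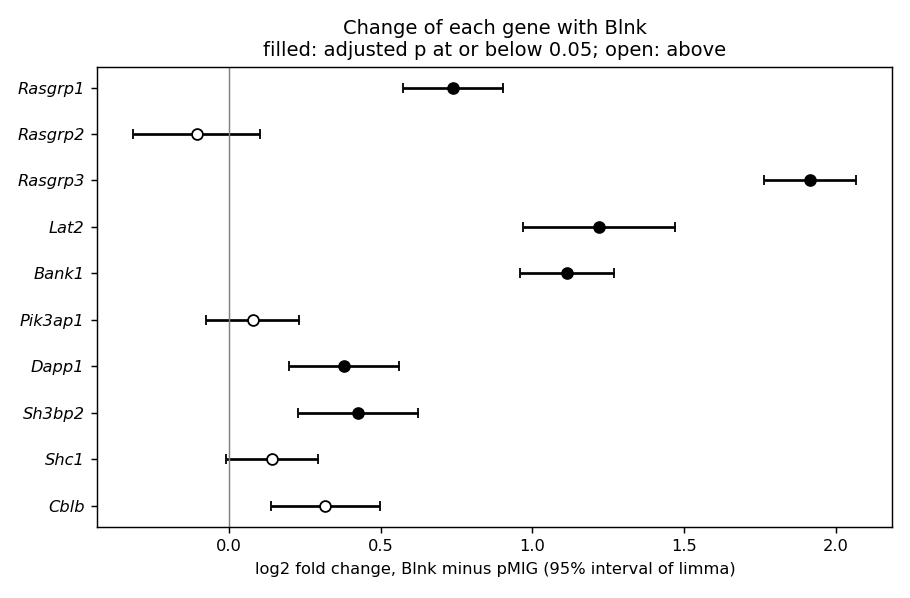
Log2 fold change, Blnk minus pMIG (horizontal axis), of the 10 genes with 95% intervals from limma; filled points passed an adjusted p of 0.05 and open points did not. Rasgrp3 stands at 1.92, Lat2 at 1.22, Bank1 at 1.12 and Rasgrp1 at 0.74, and the other 6 genes lie between -0.11 and 0.43.

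The adaptors of the PI3 kinase branch moved less. Pik3ap1 (BCAP), which binds PI3 kinase once phosphorylated, had 1758, 1765 and 1815 in the Blnk samples, against 1738, 1710 and 1613 in the pMIG samples. The lowest Blnk sample stood only 1.01 times above the highest pMIG sample, and the fold of 1.06 did not pass (95% interval 0.949 to 1.17; limma adjusted p = 0.666). Pik3ap1 lies close to Blnk on the same chromosome, with 4 protein-coding genes between them.

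Dapp1 (Bam32), an adaptor with an SH2 domain and a PH domain that binds the lipids PI3 kinase makes, had 278, 282 and 297 in the Blnk samples and 202, 230 and 228 in the pMIG samples. The groups did not overlap, and the rise was 1.30-fold (95% interval 1.15 to 1.47; limma adjusted p = 0.0415). With any 1 of the 6 arrays left out, its adjusted p was above 0.05, from 0.0943 (without pMIG sample 2) to 0.154 (without Blnk sample 3), while the log2 fold change stayed between 0.32 and 0.41. It also did not pass after centring the arrays on their medians (0.0621). Of its relatives with the same kind of lipid-binding domain, Plekha2 stood at 1.21-fold (limma adjusted p = 0.0826) and Plekha1 at 0.919-fold (limma adjusted p = 0.526), and neither passed.

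Sh3bp2 (3BP2), an adaptor that binds SYK and phospholipase C gamma, had 369, 402 and 412 in the Blnk samples, against 286, 275 and 321 in the pMIG samples. The rise was 1.34-fold (95% interval 1.17 to 1.54; limma adjusted p = 0.0381), with the lowest Blnk sample 1.15 times the highest pMIG sample. Its adjusted p also exceeded 0.05 whichever single array was left out, from 0.0634 (without pMIG sample 3) to 0.151 (without Blnk sample 3), and again after repeated quantile normalization (0.0565).

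Shc1, which links phosphorylated receptors and BCR-ABL1 to GRB2 and SOS, had 625, 582 and 599 in the Blnk samples and 551, 548 and 537 in the pMIG samples. The groups were separate by a narrow margin, and the fold of 1.10 did not pass (95% interval 0.994 to 1.23; limma adjusted p = 0.363). Its relatives Shc2, Shc3 and Shc4 were dim, at 27 to 46 over all 6 samples, and none passed (limma adjusted p from 0.927 to 0.988).

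Cblb, a ubiquitin ligase that restrains antigen-receptor signalling, had 375, 423 and 366 in the Blnk samples, against 303, 311 and 318 in the pMIG samples. Each Blnk sample was above each pMIG sample, and the fold was 1.25 (95% interval 1.10 to 1.41; unadjusted p = 0.00385, limma adjusted p = 0.0799). It passed when dim genes were left out (0.0253), when 16 was added before taking log2 (0.0344) and with a trended, robust variance prior (0.0126). Those were the only 3 of 14 alternatives in which Cblb passed. With any 1 array left out its limma adjusted p lay between 0.133 (without Blnk sample 3) and 0.207 (without pMIG sample 3). Its close relative Cbl stood at a similar 1.26-fold and did not pass (limma adjusted p = 0.0773), with 1086, 1085 and 1037 in the Blnk samples and 782, 918 and 861 in the pMIG samples.

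**Figure D3:**
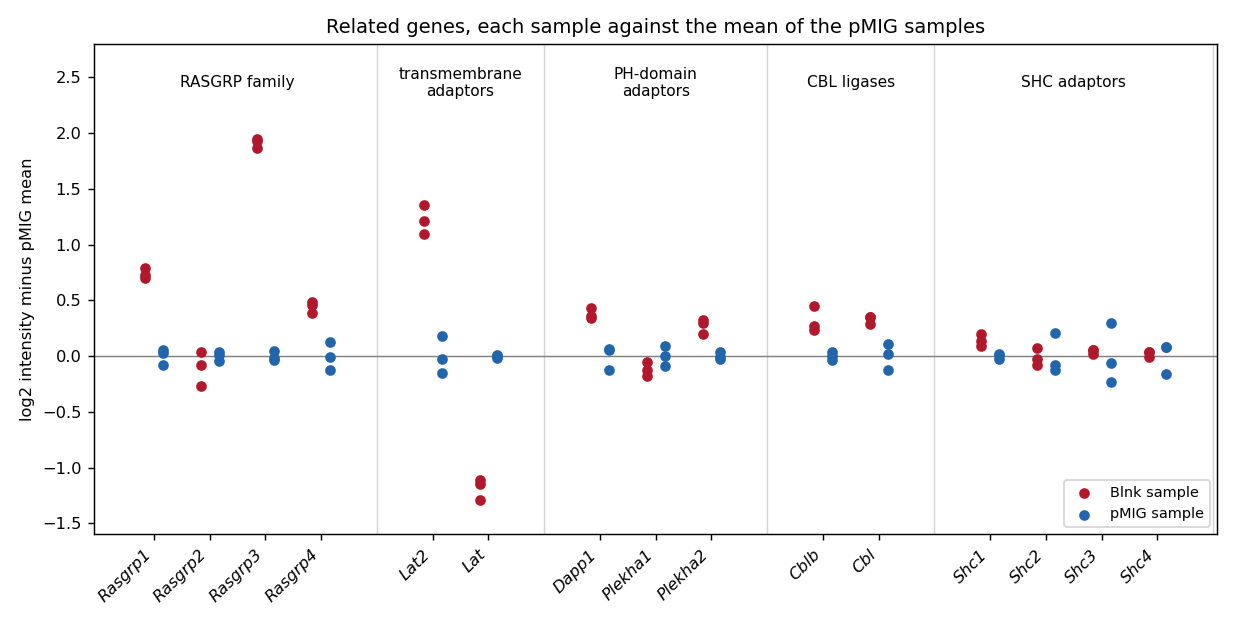
Log2 intensity of each sample minus the mean of the pMIG samples (vertical axis) for members of 5 families, Blnk samples in red and pMIG samples in blue. Within the RASGRP family Rasgrp3 is far above 0, Rasgrp1 and Rasgrp4 are higher by less and Rasgrp2 overlaps; Lat2 and Lat lie on opposite sides of 0.

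Among 15 relatives and partners of these genes, 3 rose and 1 fell (limma), with a median log2 fold change of 0.02. That was 26.7% of them, beside 3.61% of all genes. Besides Rasgrp4 and Lat, the genes that passed were Themis2 and Ubash3b. Themis2, an adaptor of B cells and macrophages that binds GRB2, had 713, 760 and 732 in the Blnk samples and 487, 475 and 492 in the pMIG samples (1.52-fold; limma adjusted p = 0.00242). Ubash3b (STS-1), a phosphatase that acts on SYK-family kinases, had 205, 214 and 236 in the Blnk samples and 158, 172 and 162 in the pMIG samples (1.33-fold; limma adjusted p = 0.0330). Leaving out any 1 array took Ubash3b above the threshold (0.0621 without Blnk sample 1 to 0.145 without pMIG sample 3).

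A further list of 21 measured genes ran from the receptor to diacylglycerol and calcium. It also held genes that act after these messengers or remove diacylglycerol, such as Prkcd, Malt1 and Dgka. The median log2 fold change of the 21 genes was 0.24. Of these genes, 6 rose, among them Prkcd (1.33-fold, limma adjusted p = 0.0248) and Malt1, and 1 fell (limma). That was 33.3% of the list, beside 3.61% of all genes. Blk, a B-cell kinase of the SRC family, had 2402, 2724 and 2593 in the Blnk samples and 1379, 1364 and 1436 in the pMIG samples (1.85-fold; limma adjusted p = 0.000649). Syk, the kinase that phosphorylates BLNK, had 1444, 1620 and 1579 in the Blnk samples and 1052, 1032 and 1042 in the pMIG samples (1.48-fold; limma adjusted p = 0.00502). Both genes had separate groups. Malt1, the protease of the NF-kB branch, rose 1.42-fold (limma adjusted p = 0.00784) but did not pass without pMIG sample 3 (0.0528). Plcg1 was the gene that fell, at 373, 404 and 400 in the Blnk samples, against 615, 642 and 636 in the pMIG samples (0.621-fold; limma adjusted p = 0.00153). Plcg2, the phospholipase C gamma that B cells mainly use, stood at 1.18-fold and did not pass (limma adjusted p = 0.175). The brightest gene in the list that did not pass was Cd79b, a signalling chain of the receptor (1.28-fold; limma adjusted p = 0.0616), which passed with arrays centred on their medians (0.0487) and under 4 further alternatives.

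Downstream, the core from RAS to ERK moved little at the median, with a log2 fold change of 0.05. Of 20 measured genes 2 rose and 0 fell (limma). That share was larger than the 3.61% of all genes that passed in either direction. Rasa3, which switches off RAS and RAP1, had 830, 930 and 938 in the Blnk samples and 677, 664 and 722 in the pMIG samples (1.31-fold; limma adjusted p = 0.0396). Rras, a RAS relative, had 202, 193 and 235 in the Blnk samples and 155, 155 and 161 in the pMIG samples (1.33-fold; limma adjusted p = 0.0470). With 1 array left out, Rasa3 passed only without Blnk sample 1 (0.0456) and otherwise reached 0.150 (without Blnk sample 3), and Rras passed in none, from 0.0813 (without Blnk sample 2) to 0.157 (without pMIG sample 3). Rras2, the brightest gene that did not pass, stood at 1.08-fold (limma adjusted p = 0.522). In the PI3 kinase list, 0 of 23 measured genes passed with limma, although before adjustment 7 were higher and 2 lower at p of 0.05 (8.91% and 6.32% of all genes were higher and lower at that p), and the list had a median log2 fold change of 0.03. Its brightest member, the tetraspanin Cd81, stood at 1.04-fold (limma adjusted p = 0.808).

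**Figure D4:**
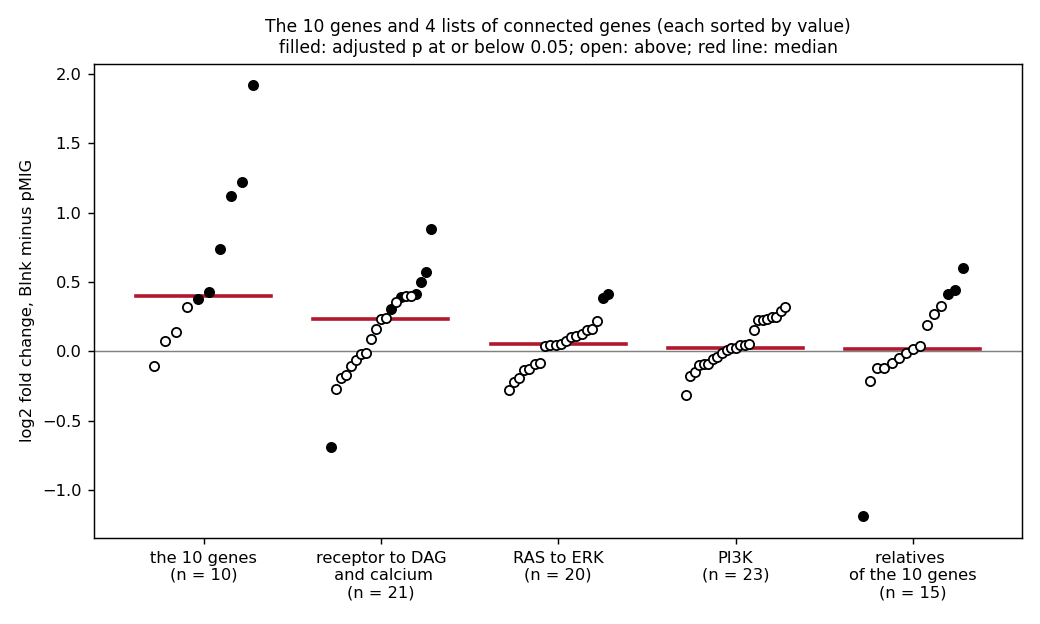
Log2 fold change, Blnk minus pMIG (vertical axis), of the 10 genes and of the measured genes of 4 connected lists, each sorted by value; filled points passed an adjusted p of 0.05, open points did not, and red lines are medians. The medians are 0.40 for the 10 genes, 0.24 for the receptor list, 0.05 for the RAS to ERK list, 0.03 for the PI3 kinase list and 0.02 for the relatives.

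The genes whose pattern over the 6 samples lay nearest to that of Rasgrp3, by the root mean square difference of log2 values centred on each gene's mean, were Pstpip2 (0.104), Lifr (0.111) and Gimap3 (0.115). Pstpip2, a membrane-bending F-BAR protein, had 889, 981 and 969 in the Blnk samples and 244, 293 and 282 in the pMIG samples. Lifr, the receptor for leukemia inhibitory factor, had 236, 287 and 271 in the Blnk samples and 59, 66 and 64 in the pMIG samples. Gimap3, a GTPase of lymphocytes, had 760, 842 and 882 in the Blnk samples and 191, 232 and 202 in the pMIG samples. With 6 samples in 2 groups this measure mainly finds genes with a rise of the same size, and all 3 of them stood between 3.47-fold and 4.19-fold higher.

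**Figure D5:**
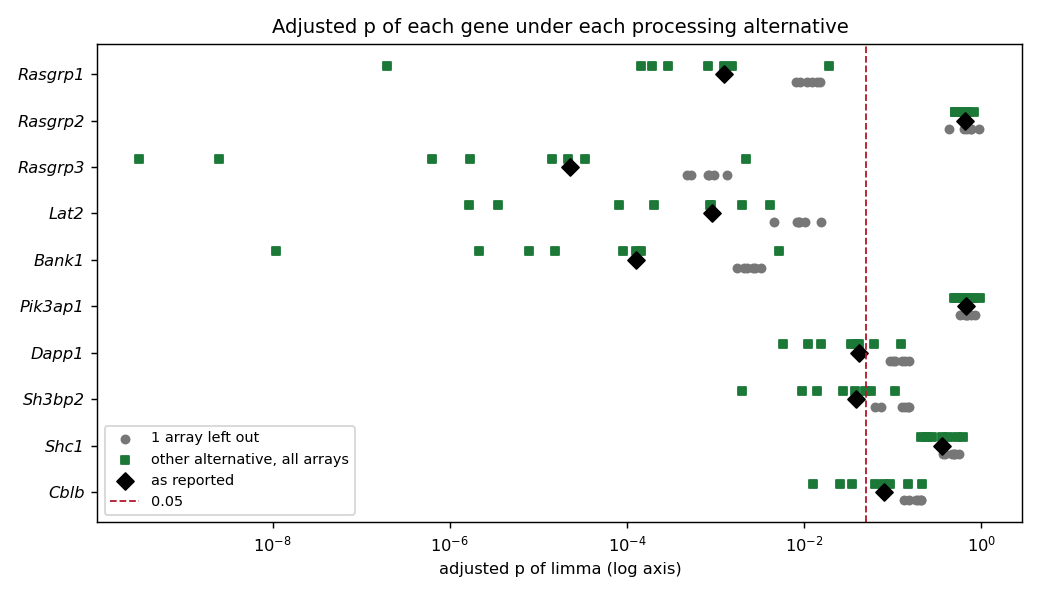
Adjusted p of limma (horizontal log axis) of the 10 genes as reported (diamonds), with 1 array left out (grey points) and under the other alternatives (green squares); the dashed line is 0.05. Rasgrp3, Bank1, Lat2 and Rasgrp1 lie left of the line at every point, Pik3ap1, Shc1 and Rasgrp2 right of it at every point, and Dapp1, Sh3bp2 and Cblb fall on both sides.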

How the data were processed

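Total RNA was labelled with biotin and measured on Affymetrix arrays, 1 per sample. The deposited table holds linear-scale intensities, whole numbers from 3 to 22187, and RMA (version not given in the sources used here) is named in the submitters' processing notes. Because RMA gives log2 values, the authors appear to have returned them to the linear scale, which is inferred from the values. Between 13.7% and 14.1% of probe sets per array lay below 16, where rounding to whole numbers makes coarse steps.

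Of 35421 probe sets, 21789 had 1 gene symbol in the platform annotation, 1621 had several and 12011 were not listed there. The brightest single-symbol probe set stood for each gene (19938 genes, 999 with more than 1). Log2 was taken with nothing added, and Blnk minus pMIG was fitted over all genes with lmFit and eBayes (limma 3.58.1, R 4.3.3), group as the only term, two-sided, Benjamini-Hochberg over all genes, threshold 0.05. The code was tested on simulated data. The number of arrays limits the precision. No scan date or batch was in the sources used here.

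The 10 genes, the 4 lists, the motifs and the tests were chosen with earlier results of these data known. Named genes were the 10, Blnk, up to 4 genes past the threshold and the brightest other gene of each list, and the 3 nearest patterns to the member that moved most. Cbl, Cd79a, Vpreb1, Plcg2, Prkcd, Dgka, Plekha1, Shc2, Shc3 and Shc4 were named after their values were seen. Alternatives are given in the closing section.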

Additional observations from a re-analysis of the deposited data

How the results depend on the processing

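Rasgrp3, Bank1, Lat2 and Rasgrp1 passed under all 14 alternatives, Pik3ap1, Shc1 and Rasgrp2 under none, and no member changed sign. The 14 included the mean of probe sets per gene. That setting could not alter the values of the 10 genes, since each has 1 single-symbol probe set. Of the 10 genes, 4 passed with any 1 array left out, and over the other alternatives the number lay between 4 (replicate block) and 7 (dim genes left out, 16 added before log2, or trended and robust prior). Their median log2 fold change was 0.36 to 0.45 with 1 array left out. The count over all genes, 720 as reported, was 289 with the replicate block and 1100 with 16 added. It was 1539 with the trended and robust prior. With dim genes left out it was 1228 of the 11963 genes then tested, all 10 members being kept. With 1 array left out it ran from 267 (without pMIG sample 3) to 437 (without Blnk sample 1). The receptor list, 7 as reported, had 3 genes past the threshold with the replicate block, 13 with the trended and robust prior, and 3 to 5 with 1 array left out. The RAS to ERK list, 2 as reported, had 0 with the replicate block or repeated quantile normalization, 3 (2 up and 1 down) with dim genes left out, and 0 to 1 with 1 array left out. The list of relatives, 4 as reported, had 2 with the replicate block, 6 with dim genes left out, 16 added or the trended and robust prior, and 2 to 3 with 1 array left out. The PI3 kinase list, 0 as reported, had 1 with repeated quantile normalization or array weights, 2 with dim genes left out or 16 added, 3 with the trended and robust prior, and 0 with any 1 array left out. Cd81 stood at -0.03 after repeated quantile normalization. Fewer arrays weaken the test by construction. The causes of the other shifts were not tested.

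The replicate numbers in the titles were tried as a block. Deviations from the group means correlated between same-numbered samples at -0.187, 0.0578 and -0.12, so the numbers were not taken to pair the samples. Under the block, Dapp1 (0.124), Sh3bp2 (0.106), Malt1 (0.0641), Rasgrp4 (0.0997), Rasa3 (0.126), Rras (0.118), Ubash3b (0.12) and Cd79a (0.176) did not pass. The pMIG levels of Rasgrp3 and Lat2 lie near or below the array medians, and no detection call was among the values used here, so whether those levels exceed background was not tested.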
